A study of Mus musculus with 8 samples.

Results

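The chemokine, interleukin and related cytokine genes of primary mouse myofibroblastic hepatic stellate cells (pMF-HSCs) were examined after inhibition of O-GlcNAc transferase (OGT), the enzyme that attaches a single O-GlcNAc sugar to nuclear and cytoplasmic proteins. Members were taken by gene symbol, as every gene named Ccl, Cxcl or Il followed by a number, together with Cx3cl1, Lif, Osm, Csf1, Csf2, Csf3, Tslp, Tnf, Kitl and the chemokine-binding receptor Ackr3. The tables of 40840 genes held 80 such symbols, of which 51 reached a summed expected count of at least 10 over the 8 libraries and were tested among 19963 genes. Receptor symbols such as Il1r1 do not match the rule and are described separately.

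All cells came from male wild-type C57BL/6J mice aged 15 to 18 weeks, and hepatic stellate cells (HSCs) were purified on a density gradient and then sorted by flow cytometry. They were kept for 7 days in DMEM with fetal bovine serum, during which they turn into myofibroblasts. Per the labels, Control cultures then received the vehicle DMSO and OGTi cultures the OGT inhibitor OSMI-1 at 50 µM, each for 24 h (n = 4 biological replicates per group, paired by replicate number). RNA was read from whole cultures, so that fewer cells of a type and less RNA per cell cannot be told apart.

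Chemokines are small secreted proteins that guide leukocytes along gradients by binding G protein-coupled receptors, and they are named CC, CXC or CX3C after the spacing of their first cysteines. Interleukins and colony-stimulating factors act through cytokine receptors, many of which signal through Janus kinases (JAKs) and STAT transcription factors. Activated HSCs are a known source of several of these signals in injured liver, among them CCL2, CXCL12, IL-6 and M-CSF (encoded by Csf1).

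Libraries held 30068876 to 37372420 expected counts, the read numbers that RSEM assigned to each gene. Scaled counts below are those counts brought to a common library size, and TPM is the abundance per unit of transcript length, used here for any comparison of levels between genes. A count was found for 19035 to 20293 genes in 7 libraries and for 23746 in OGTi replicate 4. The smooth muscle actin gene Acta2, a defining marker of myofibroblasts, was at 2157 ± 439 TPM in Control and 1793 ± 409.6 TPM in OGTi (SD, n = 4 each), and was not called (log2 fold change 0.05 ± 0.25 on scaled counts, adjusted p = 0.915, higher in 2 of 4 pairs). Of 16 stellate cell and myofibroblast markers tested, 0 were higher and 4 (25.0%) were lower in OGTi (Pdgfrb, Pdgfra, Lrat and Hgf), against 8.13% and 10.2% of all genes tested.

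OGTi changed 12 of the 51 cytokine genes tested, 6 in each direction. Lif, Il6, Il15, Ccl17, Cxcl12 and Il7 were lower, and Il11, Ccl7, Csf2, Cxcl1, Ccl25 and Il5 were higher (quasi-likelihood test of edgeR blocked by replicate, with a threshold of 0.05 on p-values adjusted by Benjamini-Hochberg over all genes tested). The share of members called was 23.5%, against 18.4% of all genes tested. By direction, 11.8% of members were higher and 11.8% were lower, against 8.13% and 10.2% of all genes. These shares lay near the background, so the number of calls is not a result about these genes as a group, and the description below is of single genes. Counts by role, given below, come from small groups, and nothing particular is read from them. The median log2 fold change of the members (OGTi over Control) was 0.12, against 0.01 over all genes, while the median of the absolute log2 fold changes was 1.02, against 0.64. Among the 26 members with a mean of at least 1 TPM this median absolute change was 0.71 and 11 were called (42.3%), against 0.47 and 24.6% of the 11659 genes at that level, a description with no test, whereas of the 25 below 1 TPM only Il5 was called. Il5 reached the count minimum through OGTi alone, with 5 counts in Control and 43 in OGTi, and the counts are given with it included. Without replicate 3 the calls fell to 3 in each direction, and without the replicate block 3 were higher.

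**Figure D1:**
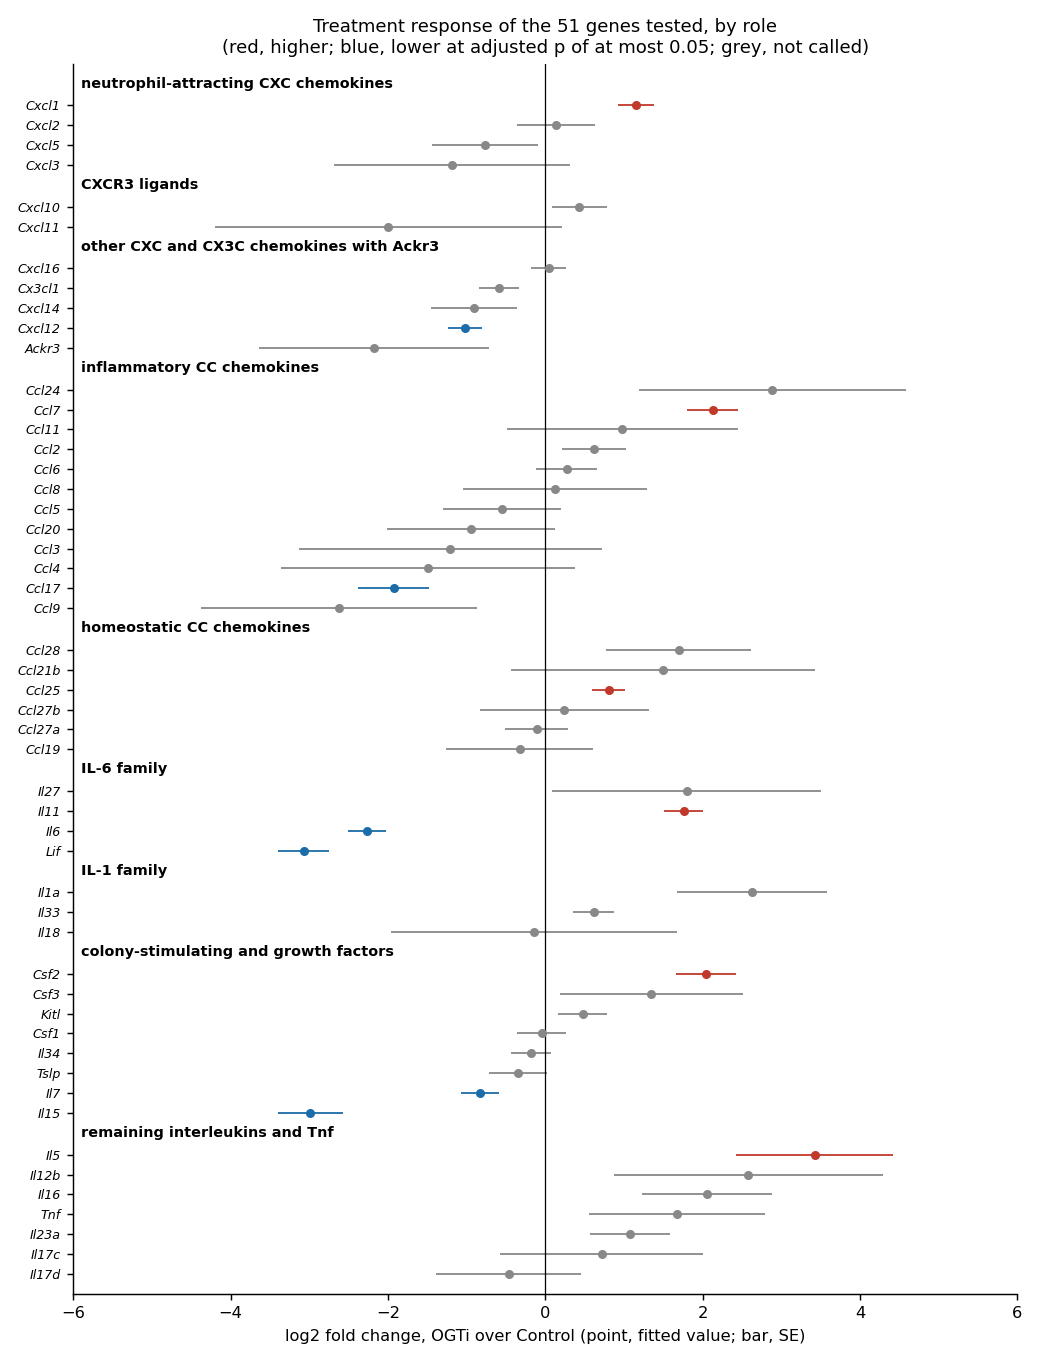
Log2 fold change of OGTi over Control for each of the 51 cytokine genes tested, arranged by role, with bars for the standard error of the edgeR estimate (n = 4 pairs). Called genes lie on both sides of 0, from Lif at -3.07 to Ccl7 at 2.13 among those with at least 1 TPM, and the widest bars belong to genes with few counts.

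The levels of these genes in pMF-HSCs were set by a few of them. Over all 8 libraries, Control and OGTi pooled, Csf1, the growth and survival factor of macrophages, had the highest mean at 951 TPM, followed by Cxcl12 at 815 TPM. After these came Ccl7 at 246 TPM, Cxcl14 at 166 TPM, Ccl2 at 160.4 TPM and Cxcl10 at 83.3 TPM, and the 10 highest ended with Cxcl16, Cxcl1, Kitl and Ccl25 at 47.6, 39.7, 32.2 and 21.5 TPM. The order differed between the groups. In Control the means were 1141 TPM for Cxcl12, 1057 for Csf1, 257 for Cxcl14, 152 for Ccl2 and 128 for Ccl7, whereas in OGTi they were 845 TPM for Csf1, 489 for Cxcl12, 364 for Ccl7, 169 for Ccl2 and 75.3 for Cxcl14. Csf1 and Cxcl12 did not differ beyond their spread over libraries, since Csf1 ranged from 363 to 1434 TPM and Cxcl12 from 366 to 1636 TPM. With Control and OGTi pooled, the ranges of Ccl7 (36.6 to 499 TPM), Cxcl14 (30.5 to 621 TPM) and Ccl2 (64.2 to 263 TPM) overlapped too. Within Control alone they also overlapped. Within OGTi alone, Ccl7 (232 to 499 TPM) and Ccl2 (122 to 263 TPM) lay wholly above Cxcl14 (41.9 to 94.6 TPM), and Ccl7 was above Ccl2 in every culture. Csf1 and Cxcl12 together made up 65.5% to 80.7% of the summed TPM of the members in Control and 47.3% to 68.5% in OGTi. That sum was 2263 to 3931 TPM in Control and 1761 to 2591 TPM in OGTi, so the groups overlapped.

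**Figure D2:**
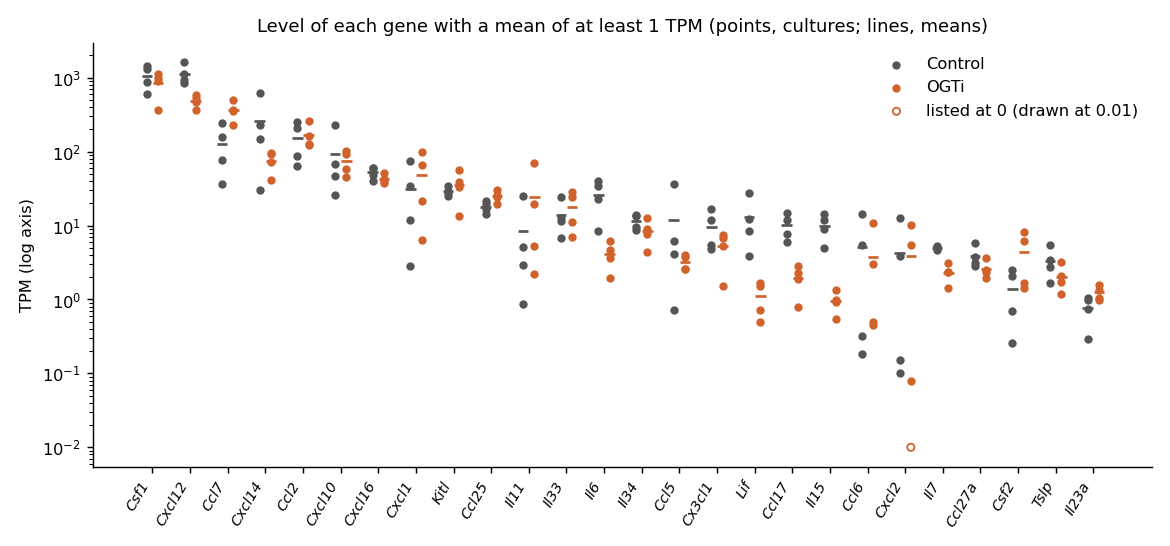
TPM in every library, on a log axis, of the 26 cytokine genes with a mean of at least 1 TPM, with lines at the group means and the single value of 0 drawn as an open marker at 0.01. Csf1 and Cxcl12 lie highest, and for most genes the points of the groups overlap.

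The remaining 29 symbols had under 10 counts in all 8 libraries together, and 12 of them had none. They included Il1b with 1 count, Osm with 6, Cxcl9 with 6, Cxcl13 with 7 and Ccl12 with 1. The signature cytokines of T cells, Il2, Il4, Il13 and Il17a, were without a count. A count of 0 allows up to 3 counts, or 0.0803 to 0.0998 CPM (counts scaled by library total) in these libraries, by counting error alone. Of the 51 tested, 12 had fewer than 10 counts in the lower group, and of these only Il5 was called.

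The IL-6 family signals through receptors that share the gp130 chain (Il6st), and its called members moved in both directions. Lif, which encodes leukaemia inhibitory factor, stood at 703, 320.1, 1002 and 2262 scaled counts in Control replicates 1 to 4 and at 59.4, 64.8, 173 and 154 in OGTi. Every OGTi culture lay below every Control culture. Lif was 8.41-fold lower in OGTi (log2 fold change -3.07 ± 0.32 SE, adjusted p = 0.000369), and its level fell from 13.1 ± 10.3 TPM to 1.1 ± 0.584 TPM (SD, n = 4 each). Il6 encodes the cytokine that drives the hepatic acute-phase response. It stood at 421, 157, 603 and 725 scaled counts in Control and at 96.3, 39.1, 107 and 137 in OGTi, again without overlap. Il6 was 4.81-fold lower (log2 fold change -2.27 ± 0.25, adjusted p = 0.000427), and its pairs differed little in the size of the change, from -2.5 to -2.0 on the log2 scale.

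Il11, which encodes a family member known for its action on fibroblasts, moved the other way. It stood at 99.1, 29.9, 166 and 845 scaled counts in Control and at 264, 82.6, 846 and 2831 in OGTi. The groups overlapped, because the replicate means (each the mean of a pair) spread over 4.94 log2 units, yet all 4 OGTi cultures lay above their own Control. The paired differences ran from 1.41 to 2.35 on the log2 scale, and Il11 was 3.38-fold higher (log2 fold change 1.76 ± 0.25, adjusted p = 0.00156). This call rests on the pairing, since the adjusted p was 0.277 without the replicate block, the highest of 11 alternatives, in which it was otherwise called. Il27 was not called, with 5 counts in Control and 14 in OGTi, and Osm and Il31 were below the count minimum.

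The ratio of Il11 to Il6 in TPM, taken within a library and so independent of its scaling, was 0.130, 0.102, 0.151 and 0.631 in Control. In OGTi it was 1.48, 1.13, 4.24 and 11.4. Il6 thus stood above Il11 in all 4 Control cultures, and Il11 above Il6 in all 4 OGTi cultures. This ratio and the one of Ccl7 to Ccl2 below were chosen after their values had been seen and were not tested.

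**Figure D3:**
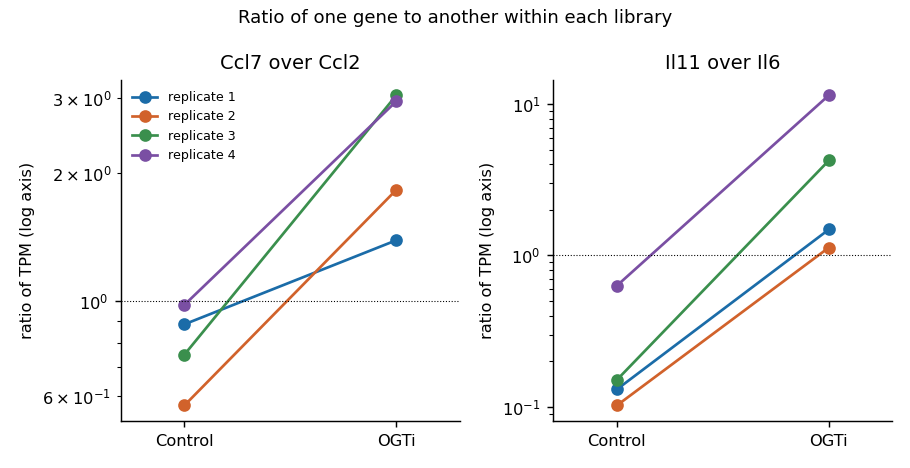
Ratios of TPM within each library, Il11 over Il6 and Ccl7 over Ccl2, on a log axis, with lines joining Control and OGTi of the same replicate. Both ratios are higher in all 4 OGTi cultures than in any Control culture.

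The sequences upstream of Lif, Il6 and Il11 are shown because these genes of one family moved in opposite directions. Each is the 250 bases before the transcript start in RefSeq (GRCm38.p6), written 5′ to 3′ on the strand of the gene and placed on GRCm39 by an exact match, at chr11:4207318-4207567 (plus strand), chr5:30217862-30218111 (plus strand) and chr7:4781141-4781390 (minus strand). Capitals mark matches to the kappaB consensus bound by NF-kappaB, to the AP-1 site TGANTCA and to the CEBP site TTGCNNAA, searched on both strands.
Lif: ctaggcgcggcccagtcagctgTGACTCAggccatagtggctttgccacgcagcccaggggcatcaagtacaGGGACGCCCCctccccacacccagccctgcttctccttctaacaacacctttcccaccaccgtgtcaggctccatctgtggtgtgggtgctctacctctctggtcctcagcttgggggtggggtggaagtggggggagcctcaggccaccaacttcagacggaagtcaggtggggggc
Il6: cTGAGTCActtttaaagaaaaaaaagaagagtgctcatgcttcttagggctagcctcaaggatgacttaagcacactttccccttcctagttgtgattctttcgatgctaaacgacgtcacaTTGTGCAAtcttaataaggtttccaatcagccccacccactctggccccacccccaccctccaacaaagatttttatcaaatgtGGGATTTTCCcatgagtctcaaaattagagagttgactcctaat
Il11: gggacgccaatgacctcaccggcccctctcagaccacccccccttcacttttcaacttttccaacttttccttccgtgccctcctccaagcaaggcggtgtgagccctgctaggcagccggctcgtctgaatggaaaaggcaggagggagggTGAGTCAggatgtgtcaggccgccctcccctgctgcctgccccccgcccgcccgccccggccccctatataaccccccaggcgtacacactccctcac
Lif held an AP-1 match 228 to 222 bases before its start and a kappaB match 178 to 169 bases before it. Il6 held an AP-1 match at the far end of the window, a CEBP match at 128 to 121 and a kappaB match at 44 to 35 bases before its start. Il11 held a single AP-1 match, 98 to 92 bases before its start. A match describes the letters only, since binding at these promoters was not measured in the libraries used here.

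The colony-stimulating and growth factor group held 8 members, all tested. Of these 1 was higher and 2 were lower, against 8.13% and 10.2% of all genes tested. Il15 encodes a cytokine that maintains natural killer and memory T cells. It stood at 119, 222, 332 and 287 scaled counts in Control and at 33.8, 35.7, 16.6 and 28.7 in OGTi, where every culture lay under the lowest Control. Il15 was 7.94-fold lower (log2 fold change -2.99 ± 0.41, adjusted p = 0.00134), from 9.99 ± 3.95 TPM to 0.95 ± 0.323 TPM. Il7, a stromal survival factor for lymphocytes, stood at 269, 305, 277 and 297 scaled counts in Control and at 119.8, 199, 169.9 and 163 in OGTi. The groups did not overlap and the change was small (log2 fold change -0.84 ± 0.24, adjusted p = 0.0374). Under the alternatives its adjusted p ran from 0.0119 to 0.132, and leaving out any of the 4 pairs, or scaling by upper quartiles, ended the call.

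Csf2 encodes GM-CSF, a growth factor for granulocytes and macrophages. It stood at 9.17, 4.40, 34.1 and 28.9 scaled counts in Control and at 29.7, 27.9, 110.3 and 144 in OGTi. The groups overlapped, and each OGTi culture lay above its own Control by 1.64 to 2.54 on the log2 scale. Csf2 was 4.14-fold higher (log2 fold change 2.05 ± 0.38, adjusted p = 0.00521), and without the replicate block its adjusted p was 0.0823, the highest of 11 alternatives. Csf1 stood at 88651, 59351, 94078 and 41819 scaled counts in Control and at 35543, 64586, 95313 and 81262 in OGTi. It was not called (log2 fold change -0.05 ± 0.31, adjusted p = 0.942). OGTi was higher in 3 of its 4 pairs and lower in the first, and the paired differences ran from -1.32 to 0.96, so that the sign of its change was not settled. The stem cell factor gene Kitl (log2 fold change 0.47, adjusted p = 0.338) and Il34, a second ligand of the Csf1 receptor (-0.18, adjusted p = 0.687), were not called either. Without replicate 1, in which OGTi was the lower, Kitl had a log2 fold change of 0.88 and an adjusted p of 0.0225, within a range of 0.0225 to 0.687 over its alternatives.

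Of 16 inflammatory CC chemokines, 12 were tested, 1 was higher and 1 was lower, against 8.13% and 10.2% of all genes tested. Ccl7 encodes MCP-3, a ligand of the monocyte receptor CCR2. It stood at 913, 432, 1785 and 2818 scaled counts in Control and at 6266, 2948, 7364 and 5140.2 in OGTi, so that the lowest OGTi culture lay above the highest Control. Ccl7 was 4.37-fold higher on scaled counts (log2 fold change 2.13 ± 0.33, adjusted p = 0.00214). In TPM it rose from 128 ± 91.6 to 364 ± 109, and there the groups overlapped, with OGTi replicate 2 at 232 and Control replicate 4 at 243. Ccl2, which encodes the CCR2 ligand MCP-1, lies next to Ccl7 on chromosome 11. It stood at 1042, 764, 2401 and 2897 scaled counts in Control and at 4542, 1627, 2438 and 1757 in OGTi. The groups overlapped and OGTi was higher in 3 of 4 pairs (log2 fold change 0.62 ± 0.41, adjusted p = 0.337). The ratio of Ccl7 to Ccl2 in TPM was 0.883, 0.5699, 0.7499 and 0.981 in Control and 1.39, 1.83, 3.05 and 2.95 in OGTi. Ccl2 was the higher in every Control culture, and Ccl7 in every OGTi culture.

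Ccl17 encodes TARC, which attracts CCR4-bearing T cells. It stood at 76.1, 50.1, 126 and 108 scaled counts in Control and at 21.5, 33.5, 25.4 and 12.6 in OGTi, without overlap. Ccl17 was 3.80-fold lower (log2 fold change -1.93 ± 0.45, adjusted p = 0.0147), and its adjusted p was 0.0704 without replicate 3 and 0.0743 without replicate 4, in a range that began at 0.000352. Ccl5 (RANTES) was not called (log2 fold change -0.55, adjusted p = 0.672) and stood at 219.7 scaled counts in Control replicate 4, against 4.40 to 36.8 in the other Control cultures and 19.9 to 28.7 in OGTi. Ccl6 differed between replicates far more than between treatments. It stood at 4.59, 7.91, 348 and 136 scaled counts in Control and at 16.4, 13.4, 342 and 91.9 in OGTi, with replicate 3 the highest in both groups.

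The homeostatic CC chemokines comprised 8 members, of which 6 were tested and 1 was higher, against 8.13% of all genes tested. Ccl25 encodes TECK, the ligand of CCR9 that attracts thymocytes and gut-homing T cells. It stood at 493, 530.3, 395 and 347 scaled counts in Control and at 928, 799.6, 753 and 598 in OGTi, without overlap and with paired differences of 0.59 to 0.93 on the log2 scale. In TPM the groups overlapped, with OGTi replicate 4 at 19.7 and Control replicate 2 at 21.3. On scaled counts Ccl25 was 1.75-fold higher (adjusted p = 0.0267). It lost its call without replicate 3 (adjusted p = 0.148) or replicate 4 (0.0773) and when libraries were scaled by their totals alone, with a lowest value of 0.000796 among the alternatives. The copies of Ccl21 and Ccl27 are near-identical genes whose reads may be divided among them, so their values are uncertain, and those tested were not called.

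**Figure D4:**
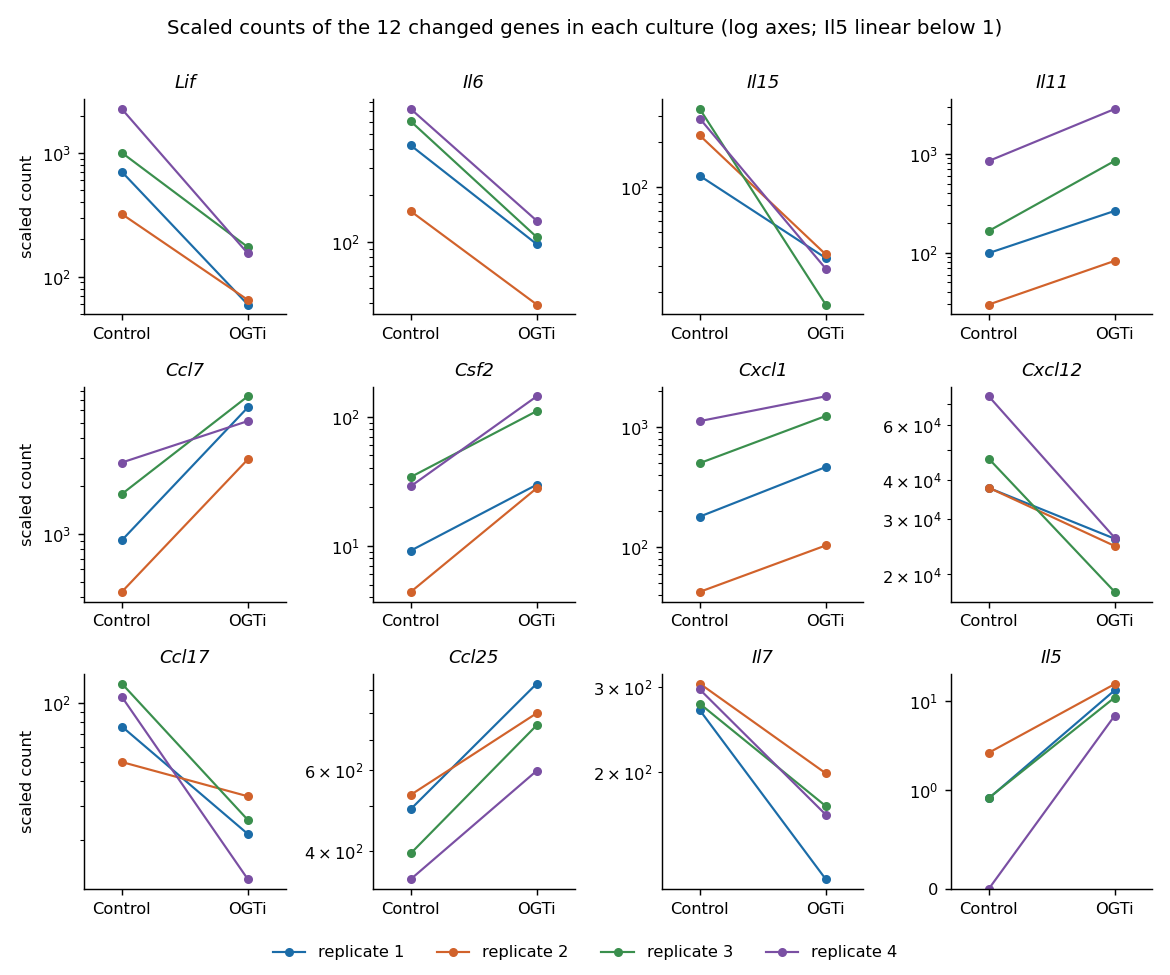
Scaled counts of the called cytokine genes in each library on log axes (linear below 1 for Il5), with lines joining Control and OGTi of the same replicate. All lines of a gene point the same way, and for Il11, Csf2 and Cxcl1 the pairs lie at very different heights.

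Among the neutrophil-attracting CXC chemokines, which bind CXCR2, 4 of 5 were tested and 1 was higher, against 8.13% of all genes tested. Cxcl1 (KC) stood at 179, 42.2, 499 and 1118 scaled counts in Control and at 463, 103, 1233 and 1799 in OGTi. The groups overlapped, and each OGTi culture lay above its own Control by 0.69 to 1.37 on the log2 scale. Cxcl1 was 2.23-fold higher (log2 fold change 1.15 ± 0.23, adjusted p = 0.00739). The call was lost without the replicate block (adjusted p = 0.512) and without replicate 3 (0.0536), and its lowest adjusted p was 1.55e-05. Cxcl2 (MIP-2) stood at 1.83, 2.64, 66.3 and 223 scaled counts in Control and at 2.05, 0, 119 and 215 in OGTi. It was not called (log2 fold change 0.14 ± 0.50, adjusted p = 0.886), and its replicate means spread over 7.45 log2 units, with replicates 1 and 2 low and replicates 3 and 4 high in both groups. Cxcl3 was not called, with 18 counts in Control and 5 in OGTi. Cxcl5, singled out after its values were seen, did not overlap between groups, at 9.67 to 16.4 scaled counts in Control and 4.47 to 9.22 in OGTi, and was not called (log2 fold change -0.76 ± 0.67, adjusted p = 0.489).

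Cxcl1, Cxcl2 and Cxcl3 lie within one cluster on chromosome 5 (90907186 to 91053797 on GRCm39, with Cxcl5 and Cxcl15), and their upstream sequences are shown because they share a kappaB match while only Cxcl1 was called. They are the 250 bases before each RefSeq start (GRCm38.p6 table, placed by exact match on the plus strand of GRCm39), at chr5:91038854-91039103, chr5:91051508-91051757 and chr5:90933710-90933959. Capitals mark a pair of overlapping kappaB matches.
Cxcl1: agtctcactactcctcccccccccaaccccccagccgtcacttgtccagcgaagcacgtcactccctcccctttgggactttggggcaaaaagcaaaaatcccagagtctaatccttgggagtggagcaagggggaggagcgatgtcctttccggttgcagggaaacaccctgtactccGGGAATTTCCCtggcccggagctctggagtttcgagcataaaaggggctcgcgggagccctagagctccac
Cxcl2: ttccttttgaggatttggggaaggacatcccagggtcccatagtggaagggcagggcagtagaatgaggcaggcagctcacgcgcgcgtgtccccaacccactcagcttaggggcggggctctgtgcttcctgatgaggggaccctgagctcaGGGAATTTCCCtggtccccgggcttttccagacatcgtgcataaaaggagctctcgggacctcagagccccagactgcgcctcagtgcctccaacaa
Cxcl3: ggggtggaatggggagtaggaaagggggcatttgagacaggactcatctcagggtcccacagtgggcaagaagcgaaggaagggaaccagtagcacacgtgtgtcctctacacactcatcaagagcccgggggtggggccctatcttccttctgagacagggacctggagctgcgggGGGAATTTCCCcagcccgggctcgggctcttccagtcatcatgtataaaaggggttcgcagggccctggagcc
The same run of letters, GGGAATTTCCC, lay 71 to 61 bases before the start of Cxcl1, 97 to 87 before that of Cxcl2 and 73 to 63 before that of Cxcl3.

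Over the members as a whole, 35 of the 51 had a promoter of 300 bases (250 before and 50 after the start) in the RefSeq table, and 33 of these were placed once on GRCm39. Of the 33, 27 lay within 100 bases of an annotated start, and the others, among them Csf2 (232 bases away), Il1a (206) and Il18 (10674), are kept in the shares that follow. The kappaB consensus was matched in 10 of the 33 (30.3%), against 8.49% of all 32544 promoters in the table, and TGANTCA in 8 (24.2%), against 7.79%. TTGCNNAA was matched in 5 (15.2%, against 10.8%), the STAT-bound GAS motif TTCNNNGAA in 3 (9.09%, against 8.33%), and the interferon-responsive ISRE motif in 3 (9.09%, against 3.45%). The CArG box of serum response factor was matched in 0, against 1.64%. Of the called genes with a placed promoter, Csf2 included, a kappaB match was found in 1 of 5 that were higher and 2 of 4 that were lower, and an AP-1 match likewise in 1 of 5 and 2 of 4.

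Of the CXCR3 ligands, which attract activated T cells and are induced by interferon, Cxcl10 was expressed at 91.9 ± 91.6 TPM in Control and 74.6 ± 27.9 TPM in OGTi. The Control mean was carried by replicate 4, at 227 TPM against 26.0 to 68.3 TPM in the other Control cultures. OGTi was the higher in 3 of 4 pairs of scaled counts, and Cxcl10 was not called (log2 fold change 0.43 ± 0.35, adjusted p = 0.448). Cxcl11 had 9 counts in Control, all in replicate 4, and 1 in OGTi.

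The other CXC and CX3C chemokines included Cxcl12 (SDF-1), the ligand of CXCR4 that retains haematopoietic cells in stroma. Cxcl12 stood at 37817, 37870.1, 46887 and 74197 scaled counts in Control and at 26025, 24665, 17603 and 26208 in OGTi. Every OGTi culture lay below every Control culture. Cxcl12 was 2.03-fold lower (log2 fold change -1.02 ± 0.22, adjusted p = 0.0102) and fell from 1141 ± 352 TPM to 489 ± 95.2 TPM. Its adjusted p was 0.0562 without replicate 3 and 0.0583 without replicate 4, in a range from 0.000114. Cxcl14, a chemokine of epithelia and fibroblasts, stood at 9144, 5931, 23995 and 1225 scaled counts in Control and at 2418, 3990.1, 4716 and 3498 in OGTi. It was lower in 3 pairs and higher in the fourth and was not called (log2 fold change -0.91 ± 0.55, adjusted p = 0.294). Without replicate 4 its log2 fold change was -1.61 and its adjusted p 0.0247, and with no filter on low counts its adjusted p was 0.0405, in a range from 0.0247 to 0.737. Cxcl16 (log2 fold change 0.04, adjusted p = 0.925) and Cx3cl1 (-0.59, adjusted p = 0.144) were not called. Ackr3, which scavenges CXCL12, had 52 counts in Control and 6 in OGTi and was not called (adjusted p = 0.346).

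In the IL-1 family, Il33, which encodes a nuclear alarmin, stood at 621, 334, 552 and 1186 scaled counts in Control and at 798, 373, 1509.6 and 1682 in OGTi. It was higher in all 4 pairs and was not called (log2 fold change 0.62 ± 0.26, adjusted p = 0.134). Il1a had 18 counts in Control and 63 in OGTi and was not called here (log2 fold change 2.63 ± 0.95, adjusted p = 0.0842). Among the remaining interleukins and Tnf, 7 of 23 were tested. Only Il5, the eosinophil growth factor, was called, against 18.4% of all genes tested. Il5 had 1, 3, 1 and 0 counts in Control and 13, 14, 10 and 6 in OGTi (log2 fold change 3.42 ± 1.00, adjusted p = 0.0385). It passed the count minimum only through OGTi, and its call was lost without any one of the 4 pairs, with adjusted p-values up to 0.118. Il16, named after its values were seen, did not overlap between groups either, with 12 counts in Control and 41 in OGTi, and was not called (adjusted p = 0.115). Tnf had 14 counts in Control and 42 in OGTi, almost all in replicate 4 of each group, and was not called (adjusted p = 0.351).

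Replicate cultures differed widely for some of these genes. In 36 of 51 members (70.6%) the range between the replicate means was larger than the absolute mean paired difference on the log2 scale, against 68.5% of all genes tested, and in 17 of the 26 with a mean of at least 1 TPM (65.4%), against 65.3% of all genes at that level. These shares lay at the background. This range was 7.45 for Cxcl2, 5.22 for Ccl6, 4.94 for Il11 and 4.42 for Cxcl1, but 0.52 for Il15 and 0.60 for Ccl17. The groups did not overlap in 11 members (21.6%), against 23.5% of all genes tested, and OGTi moved the same way in all 4 pairs in 17 (33.3%), against 40.9%. All 12 called members moved the same way in all 4 pairs. Macrophage markers also differed between replicates. The summed level of 15 macrophage and Kupffer cell markers was 58.4 to 199 TPM in Control and 92.4 to 237 TPM in OGTi, and was highest in replicate 3 of both groups, where Ccl6 was highest too. Most of that sum in replicate 3 came from Lyz2, at 138 of 199 TPM in Control and 168 of 237 TPM in OGTi. Of the 14 tested, 1 was higher (Cd68) and 1 was lower (Cd14), against 8.13% and 10.2% of all genes tested. Cd68 had another order and fell from replicate 1 to replicate 4 in both groups. It stood at 32.34, 24.68, 23.13 and 11.02 TPM in Control and at 69.4, 56.09, 51.56 and 25.35 TPM in OGTi. Cd14 was highest in Control replicate 4 (17.44 TPM) and OGTi replicate 2 (7.41 TPM). Lyz2, which encodes lysozyme, was at 13.7, 26.5, 138 and 63.3 TPM in Control replicates 1 to 4 and at 18.6, 35.8, 168 and 58.3 TPM in OGTi, so it followed the replicates as Ccl6 did. The Kupffer cell and complement genes Cd5l, C1qa, C1qb and Vsig4 were at 6.21, 5.57, 6.22 and 2.79 TPM in Control replicate 3, and at 0 to 0.10 TPM in replicate 1 of both groups. Adgre1 (F4/80) was at 0 in replicate 1 of both groups and in Control replicate 2 and highest in replicate 3, at 0.96 TPM in Control and 0.69 TPM in OGTi, and Clec4f and the pan-leukocyte gene Ptprc did not exceed 0.27 and 0.11 TPM. Of markers of other cells, 3 of 10 endothelial genes tested were lower, and 1 of 5 cholangiocyte genes moved in each direction. Of all genes tested, 8.13% were higher and 10.2% were lower, and nothing particular is read from these small lists. The endothelial genes were Tek, Lyve1 and Ptprb, at low Control means of 1.135, 0.465 and 0.2075 TPM. The cholangiocyte genes were Sox9 (higher) and Krt19 (lower). Of 8 hepatocyte genes, 5 were under the count minimum, and the called Cyp2e1, named after its values were seen, reached it through OGTi alone (7 counts in Control and 107 in OGTi). No lymphocyte (2 tested), neutrophil (3) or mesothelial gene (3) was called. The part of such cells in the chemokine levels was not tested.

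**Figure D5:**
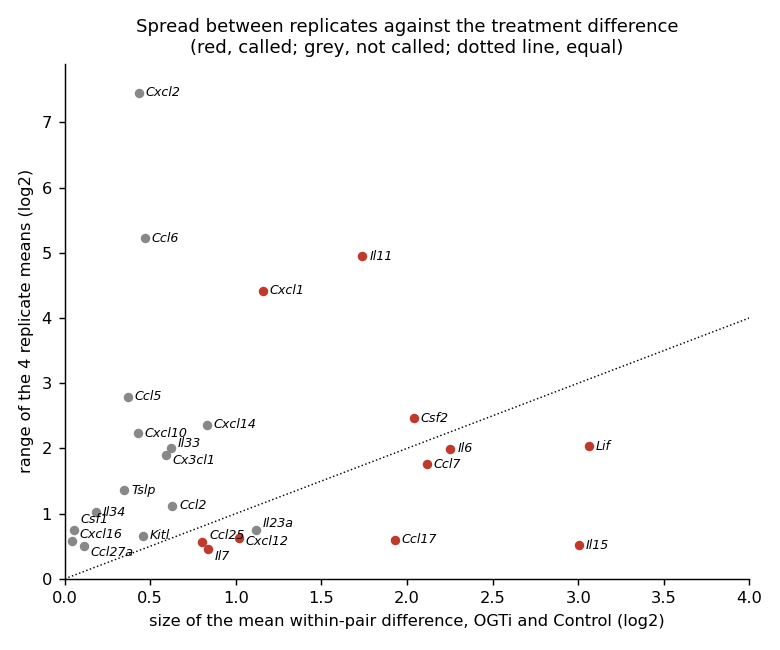
Range between replicates against the absolute mean paired difference between OGTi and Control, both in log2 units, for the 26 cytokine genes with a mean of at least 1 TPM (red, called; grey, not called). Points above the dotted line of equality, such as Cxcl2 and Ccl6, varied more between replicates than between treatments, and Il15 and Lif lie well below it.

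The receptors and signalling genes of these pathways were read from a list of 88 genes, of which 74 were tested, 3 were higher (4.05%) and 11 were lower (14.9%), against 8.13% and 10.2% of all genes tested. Without replicate 3 or without replicate 4 the lower calls numbered 4. The median log2 fold change of the list was 0.03, against 0.01 over all genes. Of the 17 JAK-STAT genes, all tested, 4 were lower, and of the 8 IL-1 family receptor genes tested, 4 were lower (23.5% and 50.0%, against the same 10.2%), small lists from which nothing particular is read. Stat3, which transmits signals of the IL-6 family, was lower (log2 fold change -0.91 ± 0.22, adjusted p = 0.0173), from 100.5 ± 21.5 TPM to 44.2 ± 14.8 TPM, and its adjusted p was 0.0688 without replicate 3 and 0.0533 without replicate 4, from 0.00217 at the lowest. The shared receptor chain Il6st was not called (0.01, adjusted p = 0.986), nor were Lifr (-0.38, adjusted p = 0.295) and Osmr (-1.07, adjusted p = 0.109), so that 0 of the 6 receptor genes of the IL-6 family were called.

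Il1rap, the accessory chain of the IL-1 receptor, was lower (log2 fold change -1.41 ± 0.29, adjusted p = 0.0089). So were Il1r1 and Il1rl2, at -1.15 and -1.77, and Stat5b, at -0.79, which were named after their values were seen. Il18rap, named in the same way and the fourth of the IL-1 family receptor genes called lower, reached the count minimum through Control alone, with 6, 27, 27 and 22 counts in Control and 3, 0, 0 and 0 in OGTi. Il15ra, which presents IL-15 to neighbouring cells, was lower together with its ligand (-1.43 ± 0.33, adjusted p = 0.0138), and Jak3 (-1.20, adjusted p = 0.0142) and the TNF receptor gene Tnfrsf1b (-0.92, adjusted p = 0.0115) were lower too. Calls were lost for Il1rap without the block (adjusted p = 0.0731) and without replicate 4 (0.0514), and for Jak3 without replicate 3 (0.0664) or 4 (0.0626). Il15ra lost its call without the block (0.0576) and without replicate 3 or 4 (0.0769 and 0.0767), and Tnfrsf1b without replicate 3 (0.0620). The other interleukin receptors held 22 tested genes, and the CSF, KIT and TNF receptors 7. Each had 0 higher and 1 lower, against 8.13% and 10.2% of all genes tested. Of the chemokine receptors, 14 of 22 were tested. Ccrl2, which binds chemerin and does not signal as a typical chemokine receptor, was lower, from 45.2 ± 10.8 TPM to 6.78 ± 3.81 TPM (-2.55 ± 0.39, adjusted p = 0.00213). Cx3cr1, Cxcr2 and Ccr1 were higher at log2 fold changes of 5.06, 2.71 and 3.06, from 0.0525, 0.198 and 0.118 TPM in Control to 1.4, 1.04 and 0.553 TPM in OGTi, all low levels. Ccr1 lost its call without the block (adjusted p = 0.0744) and without replicate 1 (0.0601).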

How the data were processed

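Per the labels, polyadenylated RNA of 8 cultures was sequenced from both ends with a stranded kit. The submitters' processing notes name Bowtie2 2.3.5.1, RSEM 1.3.1 and the mm39 genome. The authors deposited, for each library, RSEM expected counts, which need not be whole (0.251% to 0.978% of detected genes were fractional), and TPM, an abundance per length and depth. Transcripts carry RefSeq identifiers in the tables although GENCODE is given as the annotation in the methods. A table of the authors' comparison (DESeq2 1.36.0 fold changes, p-values and counts) was not used. Unused columns of values for single samples numbered 0.

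Members and gene lists were chosen with earlier results of these data known. Expected counts were rounded and fitted with edgeR 4.0.16 (glmQLFit, glmQLFTest) in R 4.3.3, on 19963 of 40840 genes with a total of at least 10, with TMM scaling and the replicate number as a block. P-values were adjusted by Benjamini-Hochberg over all genes tested, and genes at 0.05 or less were called. The SE is the absolute log2 fold change over the root of F. Scaled counts are counts over the TMM-adjusted library size, times its mean. The pairing is stated in the methods. Correlations across genes of deviations from group means were 0.109 to 0.325 for same-numbered libraries and -0.318 to 0.206 for the others. OGTi replicate 1 correlated more with Control replicate 2 (0.206) than with Control replicate 1 (0.158). Control replicate 3 correlated more with OGTi replicate 4 (0.125) than with OGTi replicate 3 (0.109). For these libraries the correlations alone do not pick out the stated partner. The procedure was run on simulated data, with changes planted in well-counted genes only and with modest differences between replicates. That run does not bear on genes with few counts or a wide spread between replicates. Named genes were all members called, the 10 of highest mean TPM, a fixed set of well-known members, and the 10 called pathway genes of lowest p, of which 1 is not reported here. The other interleukin, CSF and TNF receptors were in the same list. Marker lists of endothelial, hepatocyte, cholangiocyte, lymphocyte, neutrophil and mesothelial cells were also read. Gene positions came from GENCODE on GRCm39. Intervals and limits of counts cover counting error only, since no molecular identifiers are described.

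Alternatives were upper-quartile scaling, library totals, DESeq2 1.42.0, no count filter, edgeR's filterByExpr, no block, removal of a length trend, and leaving out each pair.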

Additional observations from a re-analysis of the deposited data

Results flagged for a closer look

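Of 42 groups of 4 cultures examined (21 named members in each treatment group), 3 held a culture whose gap to its neighbour took up more of the range of the group than Dixon's 95% critical value for 4 samples allows. For normally distributed values chance gives such a gap in about 1 in 20 groups. Scaled counts are skewed and include zeros, and the rate on this scale was not measured. Il11 stood at 845 scaled counts in Control replicate 4, against 29.9 to 166 in the other Control cultures. Tnf stood at 11.6 scaled counts in Control replicate 4, against 0 to 1.84 in the others, and at 41.4 in OGTi replicate 4, against 0 to 6.62 in the others. All 3 values belong to replicate 4.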

How the results depend on the processing

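Lif, Il6, Il15 and Ccl7 kept their direction and their call under all 11 alternatives, with highest adjusted p-values of 0.00443, 0.00894, 0.0127 and 0.0268, and so did Cx3cr1, Cxcr2 and Ccrl2. Without the replicate block the number of members called higher was 3 instead of 6, since Il11, Csf2 and Cxcl1 were not called. Leaving out 1 pair at a time gave 3 to 6 members higher and 3 to 5 lower, with the fewest without replicate 3, and 843 to 1433 of all genes higher and 1062 to 1744 lower. Over the receptors and signalling genes the lower calls then numbered 4 to 12, and with no filter on low counts the higher calls numbered 5 instead of 3. Markers called higher numbered 5 under DESeq2, against 3. DESeq2 and the fit with no filter also called Il1a. The ISRE motif was matched in 0 members when the window was shortened to 200 bases. The sign of the uncalled Csf1 turned under upper-quartile scaling (0.076), DESeq2 (0.0013), removal of the length trend (0.10) and without replicate 1 (0.37), and ran from -0.37 to 0.37 over the pairs left out. That of Cxcl16 turned with library totals alone (-0.15), without the length trend (-0.043) and without replicate 1, with -0.14 to 0.16 over the pairs left out. That of Il34 turned without replicate 4, with -0.39 to 0.0055 over the pairs left out. Scaling moved the median change over all genes (log2) from 0.01 to 0.13 with upper quartiles and to -0.19 with library totals, and the share of higher calls from 44.3% to 54.2% and 30.1%. The direction of every called member held under each scaling. The causes were not tested. Depth limits the 25 members below 1 TPM and the 29 below the count minimum.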
